A study of Mus musculus with 31 samples.

Results

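Wild-type bone-marrow macrophages given live E. coli were compared with macrophages of the same mouse given medium alone (mock). The comparison rests on 8 of the 31 arrays of the series, chosen by their labels, which hold 4 mice in both dye orientations. Macrophages were grown from the marrow of C57BL/6J mice aged 6 to 8 weeks for 8 days in medium with L929 conditioned medium, which supplies CSF-1. Log-phase bacteria were added at 1 per macrophage, and RNA was taken after 2 hours. Each array is a 2-colour spotted array that carries stimulated and mock RNA of 1 mouse, and its deposited value per probe is a log2 ratio. The ratio is read as E. coli over mock. That reading is likely, from the sample titles and from both dye orientations running the same way, but the labels do not state it. The groups used for comparison are wild-type macrophages given re-purified LPS at 10 ng/mL (4 mice, 8 arrays) and MyD88-deficient (MyD88-/-) macrophages given the same live E. coli (4 mice, 8 arrays). All these groups share the strain label, the CSF-1 culture and the 2-hour time. The labels do not say how the MyD88 deficiency was made. MyD88-/- macrophages given LPS at 10 ng/mL (4 mice, mouse 4 in 1 dye orientation only) were not compared directly. They entered the sets of probes with few values in another group and the fits with a spread shared over all groups.

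Macrophages detect Gram-negative bacteria with receptors for conserved microbial molecules. LPS, the outer-membrane lipid, is sensed at the surface by TLR4 with MD-2 and CD14, while lipoproteins, flagellin and bacterial nucleic acids reach other Toll-like and cytosolic receptors. MyD88 is the adaptor of most Toll-like receptors and of the IL-1 receptors, and drives NF-kB and MAP kinases. TLR4 also uses the adaptor TRIF, which leads to IRF3 and interferon-beta. The first hours of the response are known for immediate early transcription factors, cytokines, chemokines and the inhibitors that later limit them.

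The arrays carried between 5564 and 10002 values for 13872 probes, and 4179 probes had a value on all 8. Between 45 and 304 values of an array lay at a floor of log2(0.01), -6.64, and were treated as missing. In mouse 1 the swapped array stood apart. It had the fewest values (5564) and the widest spread, with a median absolute deviation of 0.611 against 0.379 to 0.516 on the other 7. Of its floor values 168 had a value on the partner array, with a median of -0.900 and 78 of them below -1. The orientations were averaged per mouse, and 8619 probes with a value in 3 or more mice, which stand for 6974 named genes, were tested. A ratio within an array gives no level of a gene, and the number of arrays limits the precision. Without counts, the depth is unknown.

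Live E. coli changed the ratio of 587 of 8619 probes (6.81%) at an adjusted p under 0.05 in limma, of which 358 (4.15%) rose and 229 (2.66%) fell. These probes stand for 512 named genes. All 587 had 1 sign in every mouse measured, which a call made from the same few ratios nearly requires. At a change of 2-fold or more 314 probes (3.64%) rose and 146 (1.69%) fell, 38 probes rose 16-fold or more, and 17 fell 4-fold or more. Of the rises 223 of 358 were at least 2-fold in every mouse measured, against 65 of 229 falls. The median of all probes tested was -0.03 on the log2 scale, and the median standard error (SE) was 0.205.

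The count fell when any 1 mouse was left out. It was 355 without mouse 1, 149 without mouse 2, 202 without mouse 3 and 205 without mouse 4. Of the 587 calls 134, 116 of them rises, held without any 1 mouse. A fit on 3 mice has less power, so a call can also end where the mice are even. Pparg, with -1.01, -1.27, -1.23 and -1.21 in mice 1 to 4, lost its call without mouse 2, 3 or 4. A call that ended is therefore not by itself a sign that 1 mouse carried it. Mouse 1 gave the highest value in 171 of 358 rises and the lowest in 97 of 229 falls. Its median over the rises was 2.14, against 1.83, 1.50 and 1.65 in mice 2, 3 and 4. In bulk RNA, a change in the number of cells of a type and a change of RNA per cell cannot be told apart.

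**Figure D1:**
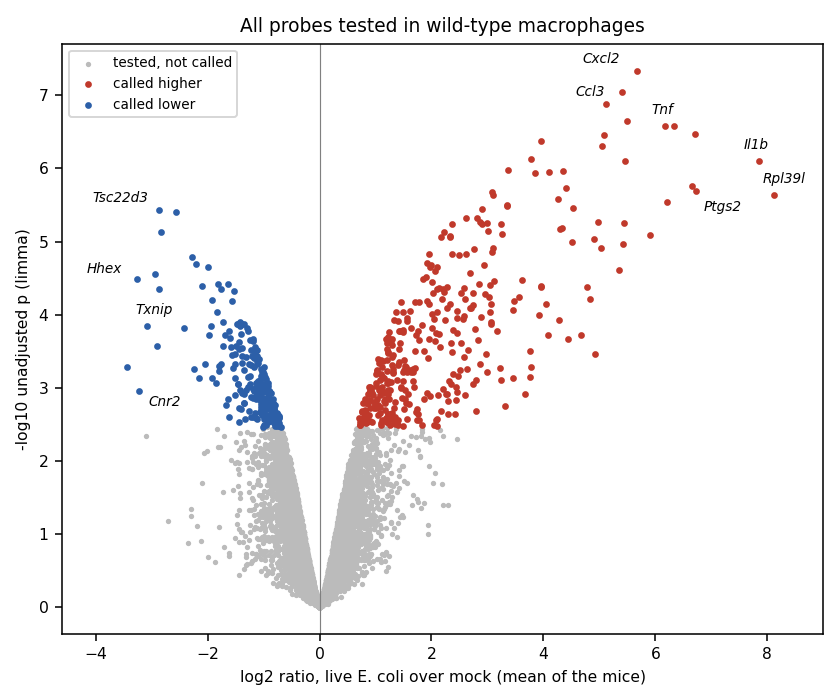
Log2 ratio of live E. coli over mock (x axis, mean of the mice) against the -log10 of the unadjusted p of limma (y axis) for the 8619 probes tested in wild-type macrophages. Red points are the 358 probes called higher and blue points the 229 called lower. The rises reach 8.12 on the log2 scale, and the falls end at -3.45, a second probe of Txnip.

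Cytokine genes gave some of the largest rises of the data set. Of 15 tested genes for proinflammatory and regulatory cytokines 12 rose and 0 fell, and their median log2 ratio was 4.05, against -0.04 over all 6971 genes tested, of which 309 rose and 194 fell. Il1b, the secreted fever-inducing cytokine that is stored as a precursor, had log2 ratios of 8.26, 8.79, 6.81 and 7.58 in mice 1 to 4. All 4 mice stood far above 0, with mouse 3 the lowest. The fitted mean was 7.86 (SE 0.341, n = 4, limma adjusted p = 0.000526), a 232-fold ratio. A second Il1b probe did not follow it, with -0.36 (SE 0.149, limma adjusted p = 0.213), and which of them measures the transcript was not tested. Il1a, the other IL-1 ligand, had 7.89, 6.05, 6.39 and 6.30, with mouse 1 apart above the others, and a mean of 6.66 (SE 0.333, limma adjusted p = 0.000832).

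Tnf, the cytokine that activates endothelium and amplifies NF-kB signalling, gave 6.34, 6.78, 5.84 and 5.76 in mice 1 to 4. The mice spanned about 1 log2 unit, and the mean was 6.18 (SE 0.220, limma adjusted p = 0.000372), a 72.5-fold ratio. Il10, the main anti-inflammatory cytokine of macrophages, gave 6.31, 4.34, 5.79 and 5.32, with mouse 2 lowest, and a mean of 5.44 (SE 0.334, limma adjusted p = 0.00126). Il1rn, which encodes the IL-1 receptor antagonist, rose by 3.35 on the log2 scale, so ligands and their inhibitor rose in the same RNA. Growth factors for myeloid cells rose as well, Csf1 by 4.30 and Csf2 by 4.05. Il15, which supports natural killer and memory T cells, was among the most even, at 4.20, 3.92, 3.98 and 3.74 in the 4 mice, with a mean of 3.96 (SE 0.153, limma adjusted p = 0.000398).

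Cytokines that instruct T cells, and Il6, rose less evenly. Il12b encodes the p40 subunit of IL-12 and IL-23, and had 5.41, 5.02, 3.16 and 5.51 in mice 1 to 4. Mouse 3 was about 2 log2 units under the others, and the mean was 4.78 (SE 0.422, limma adjusted p = 0.0041). Il6, an acute-phase cytokine, had 6.48, 4.69, 3.57 and 4.61, with mouse 1 highest and mouse 3 lowest, and a mean of 4.84 (SE 0.459, limma adjusted p = 0.00501). Il23a, the p19 subunit of IL-23, gave 3.38, 0.80, 1.83 and 2.41 and a mean of 2.10 (SE 0.416, limma adjusted p = 0.0434). The call of Il23a ended without any 1 mouse, with limma adjusted p of 0.0748, 0.0616, 0.144 and 0.145 without mice 1 to 4. It ended in 1 other cytokine gene, Tnfsf9, and held in the other 10. The 3 cytokine genes that were not called were Il13 (0.47), Il18 (0.04) and Mif (0.03).

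**Figure D2:**
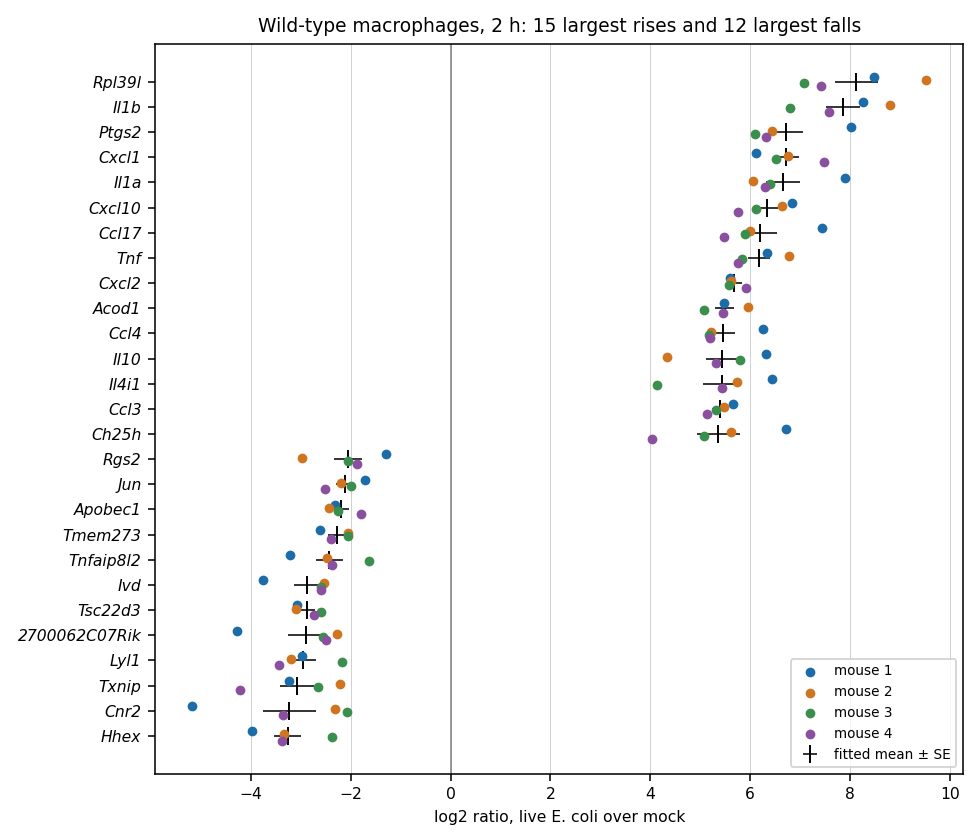
Log2 ratios of live E. coli over mock (x axis) of called genes of 1 sign in every mouse, the 15 with the highest and the 12 with the lowest mean, with 1 coloured point per mouse and the fitted mean and SE in black. No rise has a mouse under 4.02 and no fall has a mouse above -1.30.

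Chemokine genes rose in 13 of 24 cases and fell in 0 (54.2% called, against 7.22% of all 6971 genes). Their median log2 ratio was 1.28. The rises took in ligands for neutrophils, for monocytes and for T cells. Cxcl1 and Cxcl2, the neutrophil attractants that bind CXCR2, lie next to each other on chromosome 5. Cxcl1 gave 6.11, 6.76, 6.52 and 7.48 in mice 1 to 4, and a mean of 6.72 (SE 0.251, limma adjusted p = 0.000372). Cxcl2 gave 5.59, 5.62, 5.58 and 5.91, so that 3 mice fell within 0.1 log2 units of each other and mouse 4 stood above them, and a mean of 5.68 (SE 0.149, limma adjusted p = 0.000372). The chemokines Ccl3, Ccl4 and Ccl5 rose by 5.40, 5.46 and 5.05.

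Cxcl10, an interferon-inducible ligand of CXCR3 on T cells, had 6.84, 6.64, 6.12 and 5.75 in mice 1 to 4 and a mean of 6.34 (SE 0.226, limma adjusted p = 0.000372). Ccl17, a ligand of CCR4, gave 7.44, 5.99, 5.89 and 5.48, with mouse 1 well above the rest, and a mean of 6.20 (SE 0.340, limma adjusted p = 0.001). The monocyte attractants Ccl2 and Ccl7 rose by 4.10 and 3.03, and Cx3cl1, the membrane-anchored ligand of CX3CR1, by 1.90. Of the 13 calls 11 held without any 1 mouse, and those of the other 2, Ccl27a and Cxcl16, ended without mice 2, 3 or 4 (limma adjusted p up to 0.130). Cxcl13 and Cxcl9 were not called, at -0.88 and 0.35.

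Promoters of 5 of these strongly risen genes are shown because each carries the letters of an NF-kB (kappaB) element close to the start of transcription. Each sequence is the 250 bases before the start of the gene, 5′ to 3′ on the strand of the gene, from RefSeq (build GRCm38.p6). Capitals mark matches to GGANTTTCC (kappaB) or TTTCNNTTT (the letters of an interferon-stimulated response element), on either strand. The windows are chr5:90890995-90891244 (+) for Cxcl1, chr5:90903649-90903898 (+) for Cxcl2, chr5:30012864-30013113 (+) for Il6, chr5:92348890-92349139 (-) for Cxcl10 and chr14:103046762-103047011 (+) for Acod1.
Cxcl1: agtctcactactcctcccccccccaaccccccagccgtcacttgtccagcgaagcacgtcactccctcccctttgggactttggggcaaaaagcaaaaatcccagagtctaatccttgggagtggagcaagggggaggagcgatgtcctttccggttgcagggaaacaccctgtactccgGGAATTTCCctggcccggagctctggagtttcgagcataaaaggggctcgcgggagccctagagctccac
Cxcl2: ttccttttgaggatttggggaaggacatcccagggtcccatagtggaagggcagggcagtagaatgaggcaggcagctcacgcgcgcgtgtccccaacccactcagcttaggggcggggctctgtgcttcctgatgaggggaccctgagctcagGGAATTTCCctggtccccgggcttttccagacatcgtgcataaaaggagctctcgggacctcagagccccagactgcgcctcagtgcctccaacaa
Il6: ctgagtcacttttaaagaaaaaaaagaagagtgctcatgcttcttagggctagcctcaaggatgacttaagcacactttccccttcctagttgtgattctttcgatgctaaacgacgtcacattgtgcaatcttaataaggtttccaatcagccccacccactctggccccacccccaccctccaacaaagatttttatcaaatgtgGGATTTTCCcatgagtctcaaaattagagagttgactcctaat
Cxcl10: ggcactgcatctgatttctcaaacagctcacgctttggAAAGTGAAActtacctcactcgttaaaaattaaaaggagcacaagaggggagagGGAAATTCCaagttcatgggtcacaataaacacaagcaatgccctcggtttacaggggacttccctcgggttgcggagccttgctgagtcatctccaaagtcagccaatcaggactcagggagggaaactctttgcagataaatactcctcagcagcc
Acod1: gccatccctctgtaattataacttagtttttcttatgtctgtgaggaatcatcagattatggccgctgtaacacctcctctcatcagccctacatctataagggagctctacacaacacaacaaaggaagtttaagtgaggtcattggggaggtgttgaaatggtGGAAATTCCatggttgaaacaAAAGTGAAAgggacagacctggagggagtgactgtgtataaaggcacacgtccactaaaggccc
The kappaB match begins 70 bases before the start in Cxcl1, 96 in Cxcl2, 43 in Il6, 158 in Cxcl10 and 85 in Acod1. Cxcl1 and Cxcl2 carry the same 9 letters, GGAATTTCC. Cxcl10 and Acod1 also hold the letters of the interferon element, beginning 212 and 64 bases before the start.

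The letters were counted over all promoter windows of the table, which run from 250 bases before to 50 bases after a start and cover 241 of the 309 genes that rose and 166 of the 194 that fell. GGANTTTCC lay in 19 of 327 windows of risen genes (5.81%), 3 of 222 windows of fallen genes (1.35%), 71 of 6668 windows of genes tested and not called (1.06%) and 412 of all 32851 windows (1.25%). TTTCNNTTT lay in 14.1% of windows of risen genes, 9.46% of fallen, 8.53% of not called and 10.6% of all windows. The TATA letters TATAAA, read in the direction of the gene, lay in 10.1%, 2.25%, 6.6% and 8.32% in the same order. The AP-1 letters TGANTCA lay in 11.3%, 5.86%, 6.06% and 7.81%, and the CRE letters TGACGTCA in 2.14%, 2.7%, 2.35% and 1.79%. A match is a description of the letters, and these shares were not tested. The 18 risen genes with the kappaB letters include Tnfaip3 (4.91), Csf1 (4.30), Nfkb2 (2.75), Tnfaip2 (2.73) and Ifnb1 (1.75), named here after their values were seen.

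Of 17 tested eicosanoid and lipid mediator genes 2 rose, 0 fell and 15 were not called, with a median of 0.20. The share called was 11.8%, against 7.22% of all 6971 genes. Ptgs2, the inducible cyclooxygenase that makes prostaglandin precursors, had log2 ratios of 8.01, 6.45, 6.10 and 6.32 in mice 1 to 4. Mouse 1 stood above the other 3, which lay close together, and the mean was 6.72 (SE 0.346, limma adjusted p = 0.000869), a 105-fold ratio. Ptger4, which encodes the prostaglandin E2 receptor EP4, was the other gene called, at 2.79 (SE 0.428, limma adjusted p = 0.022). The call of Ptger4 ended without mouse 2 (limma adjusted p = 0.117) or mouse 4 (0.0887).

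Of 30 tested genes for antimicrobial effectors, oxidative burst and iron handling 12 rose and 0 fell, with a median log2 ratio of 0.50. The share called was 40%, against 7.22% of all 6971 genes. Acod1, which makes the antibacterial metabolite itaconate, had 5.48, 5.95, 5.06 and 5.45 in mice 1 to 4 and a mean of 5.49 (SE 0.191, limma adjusted p = 0.000372). The mice lay within 1 log2 unit of each other. Il4i1, a secreted amino acid oxidase, rose by 5.43. Ch25h, which makes the oxysterol 25-hydroxycholesterol, spread further, with 6.72, 5.62, 5.07 and 4.02 and a mean of 5.36 (SE 0.431, limma adjusted p = 0.00302). Saa3, an acute-phase apolipoprotein made by macrophages, rose by 5.08, the mitochondrial superoxide dismutase Sod2 by 2.90, complement factor B (Cfb) by 2.61 and Gch1, which supplies the cofactor of nitric oxide synthase, by 1.98.

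Nos2, the inducible nitric oxide synthase, was a small and uneven rise at this time. The mice gave 3.21, 2.76, 1.07 and 1.15, so mice 1 and 2 stood apart from mice 3 and 4, and the mean was 2.05 (SE 0.421, limma adjusted p = 0.0488). Its call ended without any 1 mouse, with limma adjusted p of 0.1, 0.177, 0.0912 and 0.0896 without mice 1 to 4. Of the 12 calls of the list 7 held without any 1 mouse. The NADPH oxidase subunit Cybb (0.53), Arg1 (0.71) and the phagosomal metal transporter Slc11a1 (0.20) were not called.

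NF-kB genes rose in 16 of 28 cases and fell in 0 (57.1% called, against 7.22% of all 6971 genes). Their median log2 ratio was 2.18. They include subunits, inhibitors and survival factors, many of which NF-kB itself is known to induce. Tnfaip3 encodes A20, the ubiquitin-editing inhibitor of the pathway, and had 2.46, 6.51, 5.57 and 5.13 in mice 1 to 4. Mouse 1 lay about 2.7 log2 units under the next mouse, and the mean of 4.91 (SE 0.646, limma adjusted p = 0.0136) was the least precise of the group. Its call ended without mouse 2 (limma adjusted p = 0.0752), mouse 3 (0.0743) or mouse 4 (0.0659).

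The A1 genes Bcl2a1a, Bcl2a1b and Bcl2a1d, near-identical relatives of Bcl2 whose probes may share signal, rose by 3.25, 2.81 and 3.26. Cflar, the inhibitor of caspase-8, rose by 2.87. Tnip1, a partner of A20, was even across mice, at 2.11, 2.34, 2.29 and 2.14, and had a mean of 2.22 (SE 0.143, limma adjusted p = 0.0014). Subunits of the pathway rose as well, Relb by 2.77 and Nfkb2 by 2.75, and so did the inhibitors Bcl3 by 2.94, Nfkbie by 2.97 and Nfkbib by 2.49, though the call of Nfkbie ended without mouse 2 (0.0885), mouse 3 (0.075) or mouse 4 (0.0659) in limma. Of the 16 calls 10 held without any 1 mouse. The other 6 ended without mouse 2 at least, with limma adjusted p up to 0.163. Nfkbia, the classical early inhibitor IkB-alpha, was not called, at -0.02 (SE 0.315, 3 mice), with -0.45 in mouse 2, 0.78 in mouse 3 and -0.38 in mouse 4. Rela was not called, at 0.93.

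Of 27 tested sensors of bacteria and their adaptors 8 rose and 0 fell (29.6% called, against 7.22% of all 6971 genes). Their median log2 ratio was 0.32. Clec4e, the C-type lectin Mincle, had the largest rise of them, with 4.78, 4.19, 4.45 and 3.59 in mice 1 to 4 and a mean of 4.25 (SE 0.229, limma adjusted p = 0.000945). Tlr2, the receptor of bacterial lipoproteins, gave 2.54, 3.13, 2.56 and 2.25 and a mean of 2.62 (SE 0.192, limma adjusted p = 0.00212). These calls held without any 1 mouse. Those of the other 6, among them Myd88 at 1.48 and the inflammasome adaptor Pycard at 1.63, ended without mouse 2 at least (limma adjusted p = 0.0607 for Myd88 and 0.0596 for Pycard, and up to 0.172 in the list). Tlr4, the LPS receptor, was not called, with -1.07 in mouse 2, -2.24 in mouse 4, mouse 3 close to mouse 2, and a mean of -1.43 (SE 0.315, limma adjusted p = 0.0757). Cd14 had a value in 1 mouse and was not tested.

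Interferon-stimulated genes rose in 19 of 41 cases and fell in 0 (46.3% called, against 7.22% of all 6971 genes). Their median log2 ratio was 1.22. Most of these calls ended when some 1 mouse was left out, as did most calls over all probes. There 134 of 587 calls, and 116 of 358 rises, held without any 1 mouse. Irf1, a transcription factor of interferon and inflammatory genes, had 4.13, 5.11, 3.52 and 3.07 in mice 1 to 4 and a mean of 3.95 (SE 0.349, limma adjusted p = 0.0041). Parp14 rose by 3.07, the guanylate-binding protein Gbp3 by 2.88 and the DNA exonuclease Trex1 by 2.37. These 4 calls held without any 1 mouse, and the other 15 did not.

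The 15 included the antiviral genes Mx2 at 3.77, Ifit1 at 3.32 and Rsad2 at 2.63. In Mx2, Ifit1, Rsad2 and Gbp2, mice 1 and 2 were above mice 3 and 4, but not in all 15, since Trim21 was lowest in mouse 1 (0.73) and Iigp1 in mouse 2 (1.93). Mice 1 and 2 gave Mx2 ratios of 4.71 and 5.26, and mice 3 and 4 gave 2.73 and 2.39. Ifit1 gave 4.68 and 4.74 against 1.79 and 2.07, and Gbp2 4.15 and 3.75 against 2.48 and 2.29. Without mouse 2 the call ended in all 15, without mouse 1 in 10, without mouse 3 in 13 and without mouse 4 in 9, with limma adjusted p up to 0.152. Mice 1 and 2 also had the higher medians over all rises, 2.14 and 1.83, and the part of that in these values was not tested. Ifnb1, the interferon that TLR4 induces through TRIF, had 2.88, 1.21, 1.76 and 1.14 and a mean of 1.75 (SE 0.323, limma adjusted p = 0.0361). Its call ended without mouse 2 (limma adjusted p = 0.113), mouse 3 (0.143) or mouse 4 (0.085). Irf7, which amplifies the interferon response, was not called, at 0.47.

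Immediate early and stress-response genes moved in both directions. Of 32 tested 14 rose and 2 fell (50% called, against 7.22% of all 6971 genes), with a median log2 ratio of 1.27. Gem, a small GTP-binding protein, had 5.43, 5.06, 5.09 and 4.87 in mice 1 to 4 and a mean of 5.11 (SE 0.162, limma adjusted p = 0.000372). Egr2 rose by 5.02, Gadd45b by 4.34 and Junb by 2.36, and these calls held without any 1 mouse. Egr1 rose less than Egr2, with 1.83, 1.26, 0.88 and 1.04 and a mean of 1.25 (SE 0.205, limma adjusted p = 0.0258). Its call ended without mouse 2 (limma adjusted p = 0.122), mouse 3 (0.081) or mouse 4 (0.0887). Of the 14 rises 6 held without any 1 mouse, and the others ended with limma adjusted p up to 0.135.

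Within the AP-1 family, Jun and Junb went opposite ways. Jun had -1.70 in mouse 1, -2.20 in mouse 2, -2.52 in mouse 4, mouse 3 between mice 1 and 2, and a mean of -2.11 (SE 0.186, limma adjusted p = 0.0041), with no mouse near 0. Junb had 2.55, 2.36, 2.30 and 2.23, and a mean of 2.36 (SE 0.146, limma adjusted p = 0.00126). Fos was not called, with -1.83, -1.07, -0.73 and 0.47, so 3 mice were under 0 and mouse 4 above it. The other fall of the list, Atf4, was -1.04, and its call ended without any 1 mouse (limma adjusted p from 0.0925 to 0.149). Its target Ddit3, the stress factor CHOP of the chaperone list, fell by 1.83 on the log2 scale, and that call ended without mouse 2 (limma adjusted p = 0.055). Of the small Maf factors Maff rose by 3.76 in the 3 mice measured, and its call ended without mouse 2 (0.105) or mouse 3 (0.0693).

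Of 22 tested genes for deadenylation and mRNA decay 4 rose, 0 fell and 18 were not called, with a median of 0.13. The share called was 18.2%, against 7.22% of all 6971 genes. Of the 4 calls 2, those of Noct and Zfp36, held without any 1 mouse. Noct (Nocturnin) gave 5.55, 4.20, 4.51 and 3.77 in mice 1 to 4 and a mean of 4.51 (SE 0.308, limma adjusted p = 0.00166), and a second probe gave 4.40. Zfp36, tristetraprolin, which binds AU-rich elements of cytokine mRNAs, gave 1.47, 1.94, 1.34 and 1.47 and a mean of 1.56 (SE 0.168, limma adjusted p = 0.00745). The calls of Btg2 at 2.60 and Btg1 at 1.19 ended without mouse 2 (limma adjusted p = 0.135 and 0.0681), mouse 3 or mouse 4. Of 12 tested MAP kinase phosphatases and SOCS genes 2 rose (16.7% called, against 7.22% of all 6971 genes). Socs1, the inhibitor of JAK signalling, gave 4.32, 4.25, 2.89 and 1.53 and a mean of 3.25 (SE 0.499, limma adjusted p = 0.0221). Its call ended without mouse 1 (0.0599), mouse 2 (0.11) or mouse 3 (0.0901).

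The surface of the cells changed in a part of its genes. Of 26 tested genes for costimulation, adhesion and activation 5 rose and 0 fell, with a median of 0.39. The share called was 19.2%, against 7.22% of all 6971 genes. Icosl, the ligand of ICOS on T cells, had 4.80, 4.26, 4.50 and 3.85 in mice 1 to 4 and a mean of 4.35 (SE 0.200, limma adjusted p = 0.000587). Cd83 rose by 2.99, the integrin ligand Vcam1 by 2.85 and the proteoglycan Sdc4 by 2.58. Of 24 genes for extracellular proteolysis and matrix 2 rose and 1 fell (12.5% called, against 7.22% of all 6971 genes). Mmp13, a collagenase, gave 5.78, 5.39, 4.12 and 4.61 and a mean of 4.97 (SE 0.305, limma adjusted p = 0.00126), and Plaur, the urokinase receptor, rose by 2.34.

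In the actin list 5 of 34 genes rose and 0 fell (14.7% called, against 7.22% of all 6971 genes). All 5 calls held without any 1 mouse, while the median of the list was -0.19. Marcksl1 rose by 3.09, Cdc42ep4, an effector of CDC42, by 2.90, Arhgef3 by 2.68, Rnd3 by 2.56 and Marcks, which ties actin to the membrane, by 1.92. Cdc42ep4 was even, at 2.66, 2.85, 3.25 and 2.84 in the 4 mice (SE 0.165, limma adjusted p = 0.00105).

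Receptors showed opposite changes in single genes. Of 25 tested cytokine and chemokine receptors 2 rose and 3 fell, with a median of -0.17. The share called was 20%, against 7.22% of all 6971 genes. Tnfrsf1b, TNF receptor 2, had 1.57, 2.07, 1.94 and 1.85 in mice 1 to 4 and a mean of 1.86 (SE 0.157, limma adjusted p = 0.00373). Il6ra, the receptor chain for IL-6, had -1.69, -1.67, -1.55 and -1.34 and a mean of -1.56 (SE 0.150, limma adjusted p = 0.00515). Of 30 G-protein-coupled receptors and regulators 5 rose and 3 fell (26.7% called). Gpr84, a receptor for medium-chain fatty acids, rose by 4.91 (SE 0.330, limma adjusted p = 0.00155), the one call of this list that held without any 1 mouse.

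The lowest means among called genes, each by the probe that stands for it, were those of Hhex, Cnr2, Txnip and Lyl1. Hhex, a homeobox factor of blood progenitors, had -3.97, -3.33, -2.38 and -3.37 in mice 1 to 4. All mice were well under 0, with mouse 3 nearest to it, and the mean was -3.26 (SE 0.276, limma adjusted p = 0.00373), a ratio 9.60-fold lower with bacteria. A second Hhex probe gave -3.11 and was not called (limma adjusted p = 0.0576). Lyl1, a haematopoietic helix-loop-helix factor, had -2.98, -3.19, -2.17 and -3.44 and a mean of -2.94 (SE 0.242, limma adjusted p = 0.00324). They were the only 2 calls among 28 macrophage and myeloid identity genes (7.14% called, against 7.22% of all 6971 genes), whose median was -0.23. Both calls held without any 1 mouse. Csf1r, the CSF-1 receptor, and Adgre1, the F4/80 antigen, were not called, at -0.35 and -0.13.

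Cnr2, the cannabinoid receptor CB2 of immune cells, had -5.18, -2.30, -2.08 and -3.36 in mice 1 to 4 and a mean of -3.23 (SE 0.532, limma adjusted p = 0.0262). Mouse 1 lay far under the others, 1 floor value was left out, and the call ended without mouse 2 (limma adjusted p = 0.0972), mouse 3 (0.0659) or mouse 4 (0.105). Rgs2, a brake on G-protein signalling, fell by 2.05, and its call ended without mouse 2 (0.0567), mouse 3 (0.0842) or mouse 4 (0.0691). Tnfaip8l2 (TIPE2), an inhibitor of Toll-like receptor signalling, fell by 2.42, and its call ended without mouse 2 (0.0681).

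Of 28 tested Kruppel-like factors, nuclear receptors and their targets 5 fell and 1 rose (21.4% called, against 7.22% of all 6971 genes). Txnip, which binds thioredoxin and limits glucose uptake, had -3.24, -2.22, -2.64 and -4.21 in mice 1 to 4 and a mean of -3.08 (SE 0.342, limma adjusted p = 0.00808). A second Txnip probe gave -3.45. Tsc22d3, the glucocorticoid-induced leucine zipper GILZ, had -3.06, -3.09, -2.59 and -2.74 and a mean of -2.87 (SE 0.164, limma adjusted p = 0.00105), with the mice close together. Klf10 had -1.73, -1.64, -1.31 and -1.25 and a mean of -1.48 (SE 0.163, limma adjusted p = 0.00783), and its call ended without mouse 2 (0.0616). Pparg, the lipid-sensing nuclear receptor, fell by 1.18, and its call ended without mouse 2 (0.073), mouse 3 (0.0734) or mouse 4 (0.0611).

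In the list of Id, BMP, TGF-beta and Notch genes 4 of 20 fell, 1 rose and 15 were not called (25% called, against 7.22% of all 6971 genes). The median was -0.48, the lowest of the 32 lists. Id1, an inhibitor of differentiation, had -2.01 in mouse 1, -2.42 in mouse 2, -1.32 in mouse 4, mouse 3 level with mouse 1, and a mean of -1.94 (SE 0.215, limma adjusted p = 0.00808). Id3 fell by 1.09, the BMP inhibitor Smad6 by 1.40 and Smad1 by 1.01, and the Notch ligand Jag1 rose by 2.25. None of these 5 calls held without any 1 mouse. Without mouse 2 they ended with limma adjusted p of 0.055 (Id1) and 0.0616 (Jag1), and up to 0.163 in the falls.

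**Figure D3:**
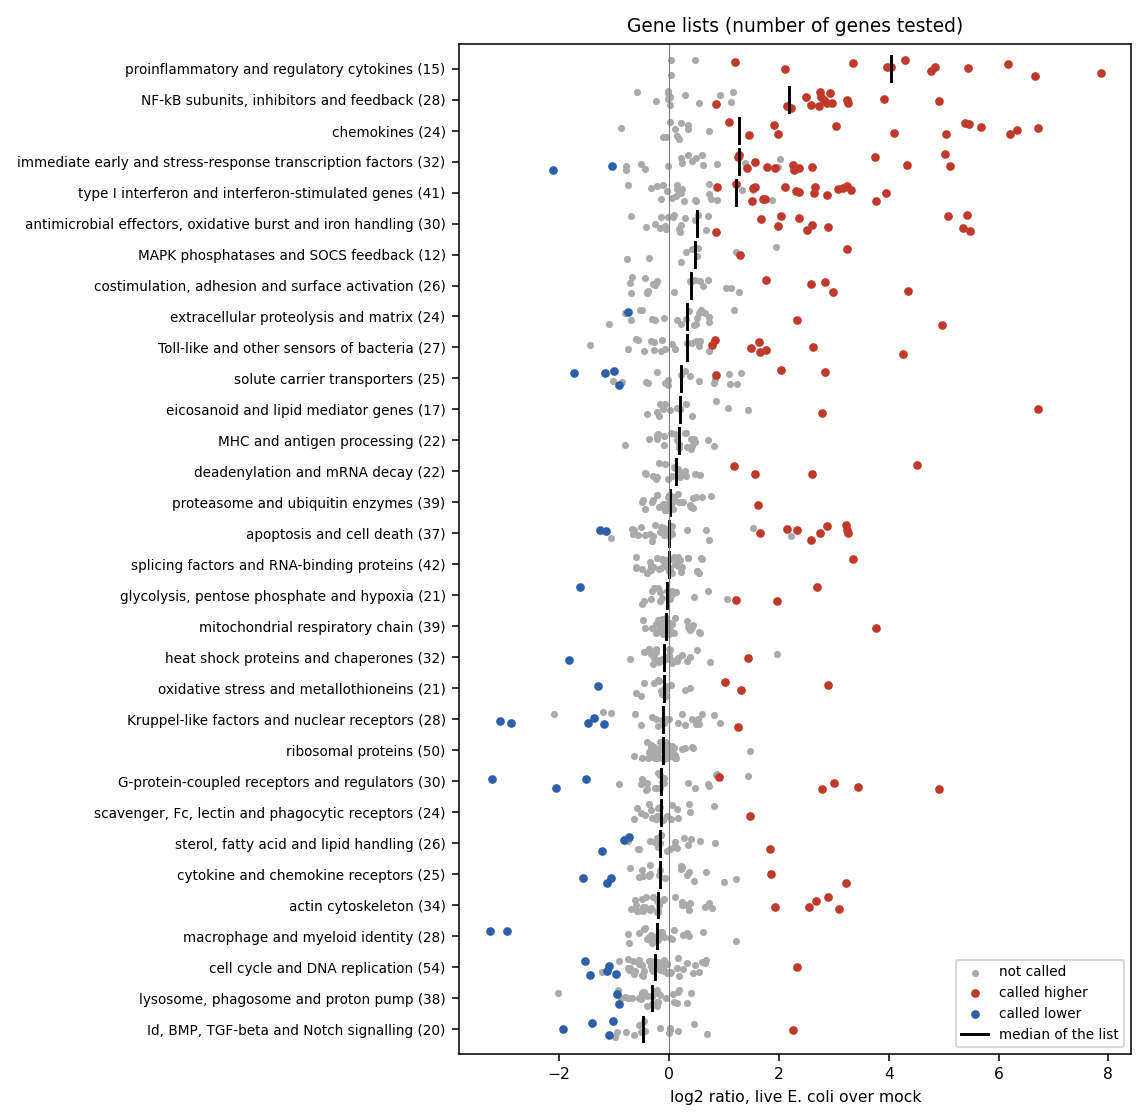
Log2 ratios of live E. coli over mock (x axis) of the tested genes of 32 lists, with the number tested in brackets and 1 point per gene. Red points rose, blue points fell, grey points were not called, and the black bar is the median of the list, which runs from 4.05 for cytokines to -0.48 for Id, BMP, TGF-beta and Notch genes.

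Metabolic lists held calls in both directions. In glycolysis, the pentose phosphate path and hypoxia 3 of 21 rose and 1 fell (19.0% called, against 7.22% of all 6971 genes). Hk2, the inducible hexokinase, had 1.95, 2.10, 1.82 and 1.96 in mice 1 to 4 and a mean of 1.96 (SE 0.144, limma adjusted p = 0.00212), and Ndrg1 rose by 2.70. The glucose transporter Slc2a1 rose by 1.23 and Vegfa fell by 1.62, and both calls ended without mouse 2 (0.0847 and 0.139), mouse 3 or mouse 4. Of 26 lipid genes 1 rose and 3 fell (15.4% called). Acadl, the long-chain acyl-CoA dehydrogenase of mitochondria, rose by 1.83, and Plin2, Cpt1a and Scd2 fell by 1.23, 0.83 and 0.73. The 3 falls ended without mouse 2 at least (limma adjusted p up to 0.169).

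Of 25 solute carriers 3 rose and 4 fell (28% called, against 7.22% of all 6971 genes). Slc7a2, the arginine transporter, had 2.43, 2.27, 1.38 and 2.06 in mice 1 to 4 and a mean of 2.04 (SE 0.218, limma adjusted p = 0.00728), and its call ended without mouse 2 (0.0612). The mitochondrial iron importer Slc25a37 rose by 2.84 in 3 mice, and the lysosomal nucleoside transporter Slc29a3 fell by 1.73. None of the 7 calls held without any 1 mouse (limma adjusted p up to 0.152). Hmox1, haem oxygenase 1, had -1.28, -1.39, -1.75 and -0.72 and a mean of -1.29 (SE 0.207, limma adjusted p = 0.025). Its call ended without mouse 1 (0.0688), mouse 2 (0.122) or mouse 3 (0.109).

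Cell cycle genes fell in 5 of 54 cases and rose in 1 (11.1% called, against 7.22% of all 6971 genes), with a median of -0.25. Ccnf, cyclin F, had -1.59, -1.54, -1.50 and -1.48 in mice 1 to 4 and a mean of -1.53 (SE 0.139, limma adjusted p = 0.00433). The mice lay within 0.2 log2 units, although 2 floor values were left out. Cdc6, which licenses replication origins, fell by 1.44, and the cohesin acetyltransferase Esco2, in no list, had -2.03, -1.72, -1.77 and -1.52 and a mean of -1.76 (SE 0.158, limma adjusted p = 0.0041). Cdkn1a, the inhibitor p21, was the 1 rise, at 2.44, 2.77, 2.49 and 1.61 with a mean of 2.33 (SE 0.228, limma adjusted p = 0.00537), while a second Cdkn1a probe gave 0.67 and was not called. The calls of Ccnf and Cdkn1a held without any 1 mouse, while that of Cdc6 ended without mouse 2 (0.0735) or mouse 3 (0.0674).

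Of 37 genes for apoptosis 9 rose and 2 fell (29.7% called, against 7.22% of all 6971 genes). Those that rose include both inhibitors of death (Cflar, Birc2, Birc3, Bcl2a1a and Bcl2a1d) and the death receptor Fas. The calls of Birc2 and Birc3 ended without mouse 2 (limma adjusted p = 0.0694 and 0.0845), and that of Birc3 also without mouse 3 (0.0588). Fas gave 4.18, 2.38 and 3.10 in the 3 mice measured, and its call ended without mouse 4 (limma adjusted p = 0.0887). In the lysosome and proton pump list 2 of 38 fell and 0 rose (5.26% called, against 7.22% of all 6971 genes), with a median of -0.31. The 2 were Atp6v1c1, which fell by 0.94, and Gla, by 0.91. Both calls ended without any 1 mouse (limma adjusted p from 0.0531 to 0.137).

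Large families gave few calls against the 7.22% of all 6971 genes. Of 50 ribosomal proteins 0 were called (median -0.11), of 22 MHC and antigen processing genes 0 (median 0.19), and of 39 proteasome and ubiquitin genes 1. Of 39 respiratory chain genes the 1 call was Atp5o, with 3.61, 3.79, 4.09 and 3.58 in mice 1 to 4 and a mean of 3.77 (SE 0.162, limma adjusted p = 0.000526), while the median of the list was -0.06. Of 42 splicing genes the 1 call was Prpf8, the core protein of the spliceosome, with 3.38, 3.16, 3.02 and 3.82 and a mean of 3.34 (SE 0.187, limma adjusted p = 0.00105), with a list median of -0.01.

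The largest rise of all named genes was Rpl39l, a relative of the ribosomal protein gene Rpl39, with 8.48, 9.53, 7.07 and 7.42 in mice 1 to 4 and a mean of 8.12 (SE 0.427, limma adjusted p = 0.00087). Atp5o, Prpf8 and Rpl39l held their calls without any 1 mouse. Each rests on 1 probe named from the platform annotation, and whether these probes measure the genes they are named for was not tested.

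Markers of other cells gave ratios but no levels, so their share of the RNA cannot be read from these data. Many had too few values to be tested. None was called among the tested B-cell (7 of 14 on the array), neutrophil (4 of 14) and dendritic-cell markers (3 of 7). Nor was any among the erythroid and megakaryocyte (6 of 11) or the mast-cell, basophil and NK-cell markers (8 of 14). Over all 6971 genes 7.22% were called, so sets this small would hold few calls at that share. Of 12 T-cell markers on the array 3 had enough values, with Cd6 called higher (0.90) and Cd28 lower (-1.12). Both calls ended without mouse 2 (limma adjusted p = 0.105 and 0.0885), mouse 3 or mouse 4, and that of Cd6 also without mouse 1 (0.0649). Cd3e had no value in any mouse. Of 14 stromal and endothelial markers on the array 5 were tested. The 1 call was the VEGF receptor Kdr, with -1.80, -2.23, -2.15 and -1.51 and a mean of -1.92 (SE 0.183, limma adjusted p = 0.00505). Col1a1 and Sparc were not called, and the part of other cells in these results was not tested.

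Some probes tested here had few values in another group, the MyD88-/- LPS group included. Of the 8619 probes 1294 had values in fewer than 3 mice of at least 1 other group. Of these 25 were called, 21 higher and 4 lower, a smaller share than the 6.81% of all probes tested. They include Ptgs2, Il6, Il12b, Csf2, Il23a, Nos2 and Cx3cl1, whose values are given above. Ptgs2, Il6, Il12b, Csf2 and Nos2 still had enough values for the comparison with wild-type LPS. Il12b also had enough for that with MyD88-/- macrophages given E. coli. Csf2, which encodes GM-CSF, gave 4.54, 2.79, 5.14 and 3.74 in mice 1 to 4 and a mean of 4.05 (SE 0.395, limma adjusted p = 0.00537). All 4 mice were over 2 on the log2 scale, and the call held without any 1 mouse. Fpr2, a receptor for formyl peptides of bacteria, rose by 1.68 in 3 mice, and its call ended without any 1 mouse (limma adjusted p from 0.0554 to 0.111). The interferon-inducible GTPase Iigp1 had 3.83, 1.93, 2.77 and 2.10 and a mean of 2.66 (SE 0.341, limma adjusted p = 0.0126), and its call ended without mouse 2 (0.0567) or mouse 3 (0.0715). These probes passed the filter through this group alone or with some others, so their counts are a description. The 4 falls were Fuca1 (-1.92, 3 mice), Mast2 (-1.63, 3 mice), Abca4 (-1.05) and Naa80 (-0.97), and none of these calls held without any 1 mouse (limma adjusted p up to 0.172).

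The dye orientations gave the same picture of the called probes. Across all probes with a value in both orientations, the swapped and unswapped arrays of a mouse correlated at 0.710, 0.709, 0.504 and 0.445 in mice 1 to 4, over 5147 to 7122 probes. Over the called probes the correlation was 0.936, 0.932, 0.875 and 0.905, and between 97.2% and 99.0% had the same sign on both arrays. The calls were made from the mean of these arrays, so the second set of values is a description. Arrays of a mouse share their RNA. With a dye term fitted on the 8 arrays, 18 of 8511 probes were called for dye in limma, 1 of which was also called for the response.

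**Figure D4:**
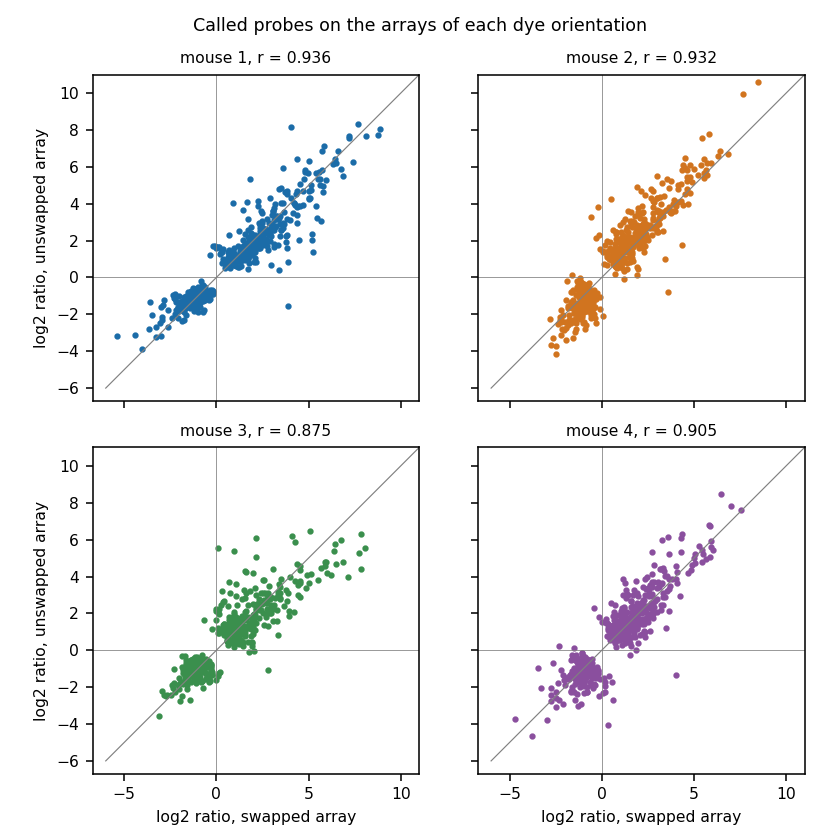
Log2 ratios of the called probes on the swapped array (x axis) and the unswapped array (y axis) of each of the 4 mice, 1 point per probe, with the line of equal values. The correlation runs from 0.875 in mouse 3 to 0.936 in mouse 1, and points in the upper left or lower right are the few probes whose sign differed between orientations.

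Purified LPS and live E. coli gave responses that no probe separated after adjustment. Of 7892 probes tested for the difference between the stimuli in wild-type macrophages 0 (0%) were called in limma, the smallest adjusted p was 0.999, and 319 had an unadjusted p under 0.05. No probe was called with the mouse number as a block or with the spread shared over all groups. The dose of LPS and that of bacteria were not matched, the groups may share mice and mock RNA (the labels use the same mouse numbers), and a p that misses the threshold does not show that the responses were equal.

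The values can be set side by side. Ccl17 was 6.20 with E. coli and 3.74 with LPS, a difference of 2.46 (95% interval 1.11 to 3.80, limma adjusted p = 0.999). Il1b was 7.86 and 6.19, a difference of 1.67 (0.633 to 2.70), and Cxcl10 was 6.34 and 4.70, a difference of 1.63 (0.906 to 2.36). Gem was 5.11 and 3.31, with an interval of 0.776 to 2.83. These intervals are not adjusted for the number of probes, and genes picked for a high ratio with E. coli tend to be higher there. Among the falls, Hhex was -3.26 and -2.79 (interval of the difference -1.79 to 0.847), and Txnip was -3.08 and -4.15 (-0.17 to 2.32). The median difference (E. coli minus LPS) was 0.58 over 39 genes of the interferon list, 0.80 over 15 cytokines and 0.54 over 22 chemokines. Over all 7892 probes it was -0.0004. Other lists went either way, such as immediate early genes (0.33), NF-kB genes (0.24) and apoptosis genes (-0.10). No list had a member called.

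The response to live E. coli differed between the genotypes in a small set of genes, chemokines and cytokines among them. Of 7887 probes tested for the difference between wild-type and MyD88-/- macrophages 23 (0.292%) were called in limma, 18 with the wild-type ratio higher and 5 lower, and 12 of the 23 held without any 1 mouse of either genotype. Chemokine genes made up 6 of the 18 and cytokine genes 3, of 22 and 11 tested.

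Ccl17 differed most. The wild-type mice gave 7.44, 5.99, 5.89 and 5.48 and the MyD88-/- mice 0.05, -0.14, 0.86 and 0.82. The groups did not overlap, and the difference was 5.80 (SE 0.438, limma adjusted p = 0.000895). Ccl3 had 5.66, 5.47, 5.32 and 5.13 against 1.74, 0.19, 1.00 and 1.18, a difference of 4.37 (SE 0.321, limma adjusted p = 0.000895). Cxcl2 had 5.59, 5.62, 5.58 and 5.91 against 2.51, 1.86, 2.37 and 2.41, a difference of 3.39 (SE 0.210, limma adjusted p = 0.000476), and all 4 MyD88-/- mice stood above 0. Il1b was between 6.81 and 8.79 in wild type and between 1.74 and 3.95 in MyD88-/-, a difference of 4.90 (SE 0.589, limma adjusted p = 0.0101). These 4 calls held without any 1 mouse.

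Ccl2, Ccl7, Prpf8, Plaur and Cebpd also held without any 1 mouse, and are named after their values were seen. Noct was called on both its probes. The probe that stands for the gene (4.51 in wild type and 1.69 in MyD88-/-) ended without mouse 2, 3 or 4 of MyD88-/- or mouse 3 of wild type (limma adjusted p from 0.058 to 0.0803), and the second (4.40 and 1.95) held without any 1 mouse. Ccl2 was 4.10 in wild type and 0.82 in MyD88-/-, and Ccl7 3.03 and -0.02. Cebpd, which encodes C/EBP-delta, was 1.78 and -1.22, and Plaur 2.34 and 0.27. Of the largest differences Rpl39l (4.35) ended without mice 1, 2 or 3 of MyD88-/- or mouse 1 of wild type (limma adjusted p from 0.082 to 0.0946), and Il1a (3.72) without 7 of the 8 mice (up to 0.149). The difference of Tnf (2.25) ended without mouse 2 or 3 of MyD88-/- or mouse 1 of wild type (up to 0.0781).

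Falls also differed between the genotypes. Klf10 had -1.73, -1.64, -1.31 and -1.25 in wild type and 0.23, 0.58, 0.13 and 0.40 in MyD88-/-, a difference of -1.82 (SE 0.204, limma adjusted p = 0.00747) that held without any 1 mouse. Txnip had -3.24, -2.22, -2.64 and -4.21 against -0.52, -0.16, -0.77 and -0.15, a difference of -2.68 (SE 0.406, limma adjusted p = 0.0378). Esco2, Trim59 and Sgk1 were lower in wild type by 1.53, 1.30 and 1.44 on the log2 scale. Sgk1 was not a called fall in wild type (-0.52), and the MyD88-/- mice were above 0, at 0.75, 0.88, 0.87 and 1.20. The calls of Esco2 and Sgk1 ended whichever 1 of the 8 mice was left out, and those of Txnip and Trim59 when any 1 of 6 of the 8 was, with limma adjusted p up to 0.147, 0.123, 0.124 and 0.083 in that order.

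The difference between the genotypes was not called in other genes of the response, which does not show that they were equal. Acod1 was 5.49 in wild type and 5.32 in MyD88-/-, Cxcl10 6.34 and 5.81, Icosl 4.35 and 3.97, Clec4e 4.25 and 4.21, and Irf1 3.95 and 4.23. Tlr2 was 2.62 and 3.47, Vcam1 2.85 and 4.49, and Gbp3 2.88 and 3.96. Il12b was 4.78 against -0.04, but the 3 MyD88-/- mice measured spread from -2.95 to 1.71 and the difference was not called (4.82, limma adjusted p = 0.198). In the interferon list the median difference was -0.36 over 38 genes, with 0 called, and in the cytokine list it was 1.53 over 11 genes.

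**Figure D5:**
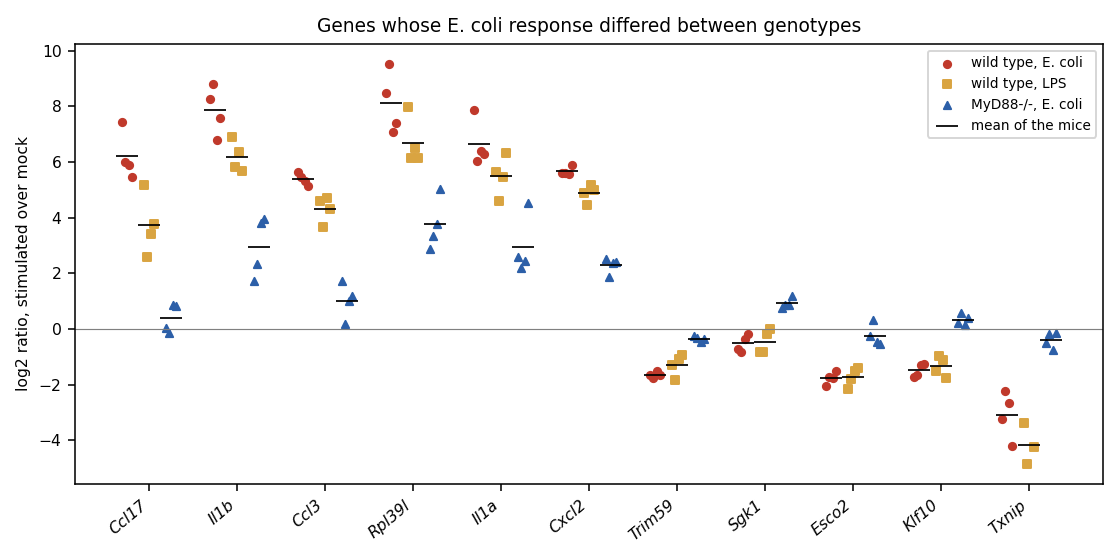
Log2 ratios of stimulated over mock RNA (y axis) for 11 genes whose response to E. coli differed between genotypes, the largest differences each way. There is 1 point per mouse for wild type with E. coli, wild type with LPS and MyD88-/- with E. coli. A black bar marks the mean of the mice. The genes were picked from called probes without overlap between wild-type and MyD88-/- mice given E. coli, so the gap is a condition of the choice. Ccl17 lay at 5.48 or more in wild type against 0.86 or less in MyD88-/-.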

How the data were processed

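Each array's deposited value is a log2 ratio made by the authors, whose slides were scanned with a GenePix 4000B scanner, quantified in GenePix Pro 3.0 and analysed in BASE and GeneSpring, per the labels' description. Background correction, normalization, spot filter and ratio direction are not given in the sources used here. Values at log2(0.01), -6.64, were set to missing, and the dye orientations were averaged per mouse. Probes with values in 3 or more of the 4 mice were tested against 0 with limma 3.58.1 (lmFit and eBayes, R 4.3.3, 2-sided), after the code was tested on simulated data. Benjamini-Hochberg adjustment ran over all tested probes, an adjusted p under 0.05 was called, and p-values measure the spread between these mice. Differences between groups were fitted on the mice of the groups compared, with values in 3 or more mice of each. Of 13872 probes, 11480 had 1 symbol in the platform annotation, 50 several and 2342 none. Where a gene had several probes, the one with the most values stood for it. Motifs were searched in RefSeq promoters of GRCm38.p6.

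The members and lists were chosen with earlier results of these data known. Genes were named by rule. The rule took the 15 largest rises and 12 largest falls of 1 sign in every mouse. It took the 10 largest each way among probes with values in fewer than 3 mice of another group. It also took the 4 members of each list with the smallest p and 34 fixed genes. For each comparison it took the 6 largest differences each way among called probes whose mouse values did not overlap between the groups. Other genes were named after their values were seen. Alternatives were another filter, centring and scaling, each dye orientation alone, floor values kept, a dye term with mice as a random block, the spread shared over all groups, another moderation, and each mouse left out.

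Same-numbered mice of the wild-type E. coli and LPS groups did not deviate together (r of -0.07 to 0.05 over 6434 probes), so numbers were not used as pairs.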

Additional observations from a re-analysis of the deposited data

Results flagged for a closer look

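In 8 of 121 called genes with 4 mice, 1 mouse stood apart from the other 3 by Dixon's criterion, which chance meets in about 1 group in 20. Cxcl2 was highest in mouse 4 at 5.91. Ccl4 was highest in mouse 1 at 6.26, and Parp14, a poly-ADP-ribose polymerase induced by interferon, was highest in mouse 1 at 4.17. Lowest values that stood apart were -4.28 for 2700062C07Rik and -3.76 for Ivd, an enzyme of leucine breakdown, both in mouse 1, -2.78 for Vegfa, 1.44 for Jag1 and 1.69 for Marcks. A second Ivd probe gave -0.21 and was not called.

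By limma's test of the difference, the response to E. coli differed between wild-type and MyD88-/- macrophages in 23 probes. Ccl4 (2.89), Saa3 (2.21) and other named genes are among them. The 11 genes given here had the largest differences each way, at most 6. The log2 difference was 5.80 for Ccl17, 4.90 for Il1b, 4.37 for Ccl3, 4.35 for Rpl39l, 3.72 for Il1a and 3.39 for Cxcl2. It was -2.68 for Txnip, -1.82 for Klf10, -1.53 for Esco2, -1.44 for Sgk1 and -1.30 for Trim59. Of these Sgk1, a kinase, was not called for the response in wild type itself (-0.52, limma adjusted p = 0.148).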

How the results depend on the processing

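The 587 calls, of 8619 probes tested, became 1059 with 8 arrays, a dye term and mice as a random block. With both orientations required in 3 mice they became 1085, of only 5306 probes tested. They became 1448 with the spread shared over all groups (681 higher, 767 lower) and 224 with trend and robust moderation (187 higher, 37 lower). They ranged from 149 to 355 with 1 mouse left out. The 23 genotype differences, of 7887 probes tested, became 50 with the shared spread and 13 on unswapped arrays alone (6447 probes tested). With values in all 4 mice they became 41, of 6598 probes tested. They ranged from 13 to 20 with 1 mouse left out. The 173 called list members became 277 with the shared spread and 112 with trend and robust moderation, and ranged from 83 to 134. Of the 127 called named genes 71 to 110 stayed called, and 69 held without any 1 mouse. The cause of these shifts was not tested. The difference from LPS had 0 calls with arrays centred or scaled, floor values kept, all 4 mice required, either orientation alone, the shared spread, each mouse left out and a replicate block by mouse number (0 calls). No result changed sign. With 4 mice an exact sign test cannot go below 0.125, so calls rest on limma's moderated spread.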

Other observations

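Of the called genes 327 were in none of the lists, 174 higher and 153 lower, and 42 of these calls held without any 1 mouse. The genes named here are among those 42 and were picked after their values were seen. Jak2, the kinase of many cytokine receptors, had 4.12, 4.09, 3.72 and 3.47 in mice 1 to 4 and a mean of 3.85 (SE 0.179, limma adjusted p = 0.000587). Plpp3, a lipid phosphate phosphatase, had 5.25, 4.68, 4.33 and 3.84, Cav1, the coat protein of caveolae, rose by 3.95 and Stx11, a syntaxin of immune cells, by 3.61. Pdgfb, a growth factor for mesenchymal cells, rose by 3.47, Wnt3a by 2.79 and Pdpn, the ligand of CLEC-2 on platelets, by 3.04. Peli1, a ubiquitin ligase of Toll-like receptor signalling, had 3.56, 2.76, 2.79 and 2.90. Jdp2, an AP-1 partner, rose by 2.62. Among the falls, Fbxo5, an inhibitor of the anaphase-promoting complex, had -1.97, -1.99, -1.79 and -1.53 and was -1.82 in the mean.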
